A study of Rattus norvegicus with 16 samples.

Results

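The zinc finger genes whose symbols begin with Zfp and a number were described in the hypothalamus of rats that had been restrained, had inhaled linalool, had both together, or had neither. Members were all probe sets with a single gene symbol of this form in the platform's annotation table. There were 341 such probe sets for 220 genes, of 20826 probe sets with 1 symbol and 31042 probe sets in all without the array's controls. The 251 detected members, for 182 genes, had a mean level at or above the 40th percentile of all probe sets. Detected means only this, and no test of presence was made. The other 90 were dim and were not tested in the main fit. An alternative fit with no filter on level tested all 341.

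Each of 16 male Wistar rats, aged 7 to 8 weeks, gave 1 array, with 4 rats in each of 4 groups. Control rats had neither stress nor odour. Restraint rats were held for 2 h, linalool rats inhaled (R)-(-)-linalool, a floral monoterpene alcohol, for 2 h, and combined rats had both for 2 h. The labels name no transgene and no pooling of animals. As every array stands for its own rat, p-values rest on the spread between animals, and precision is limited by there being 4 of them per group.

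Most Zfp proteins bind DNA through tandem C2H2 zinc fingers, each a short loop held by a zinc ion that reads a few bases. Many carry a KRAB domain, which recruits the co-repressor KAP1 (Trim28) and its histone methyltransferase partners to silence chromatin, and many such genes lie in clusters formed by gene duplication. A few members carry other fingers. Zfp36 and its relatives use CCCH fingers to bind AU-rich elements in messenger RNA and speed its decay, and Zfp36 is known as an early response gene. The name therefore joins proteins with different roles.

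Values are log2(signal + 16) after normalization, and a change is a difference on that scale with limma's standard error (SE). A call is a Benjamini-Hochberg adjusted p under 0.05 in limma's test over all 18625 detected probe sets. The signal of a probe set depends on its probes, so levels of different genes describe the array and not the number of transcripts. In whole tissue, fewer cells of a type and less RNA per cell cannot be told apart. The restraint response was present in the arrays: Sgk1, Fkbp5 and Per1, genes induced by glucocorticoids, rose by 2.17, 0.81 and 1.05 with restraint on average. Of 10 markers of hypothalamic neurons, 9 had a probe set with 1 symbol and 6 were detected. Pomc, Agrp, Sim1 and Otp were dim or absent from the array. Of 5 pituitary markers on the array, 3 were detected, and Gh1 and Prl were dim. The 3 summed to 208 to 6896 signal units in control rats and to 2329 to 6996 in the other groups. The median signal of an array as deposited ranged from 67.0 to 127. The spike-in control BioC was high (884 to 1014) on linalool arrays 2 and 4 and combined array 2, called the BioC-high arrays below, and 201 to 271 on the other 13.

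Over the 16 arrays the detected members had mean levels from 6.27 to 10.84, with a median of 7.63, and the dim members from 4.22 to 6.22, with a median of 5.38. Zfp764l1 (6.27) lay just above the filter limit, and Zfp758 (6.22) just below it. The brightest was Zfp330 (10.84), a nucleolar protein gene, followed by Zfp36l1 (10.34), Zfp771 (10.03), Zfp91 (10.03), Zfp260 (9.96), Zfp148 (9.95), Zfp664 (9.83), Zfp180 (9.82), Zfp423 (9.77) and Zfp637 (9.70). Zfp91 encodes an atypical ubiquitin ligase, Zfp148 a factor that binds GC-rich promoters and Zfp423 a factor of brain development. The dimmest detected genes were Zfp322a (6.35), Zfp136 (6.34), Zfp483 (6.34), Zfp324 (6.31) and Zfp764l1. Among the dim probe sets, Zfp758, Zfp704 (6.22) and Zfp593 (6.21) were highest and Zfp819 (4.27), Zfp787 (4.24) and Zfp532 (4.22) lowest. Zfp704, Zfp787 and Zfp532 each also had a detected probe set, as did 37 genes in all, while 38 genes had only dim ones.

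**Figure D1:**
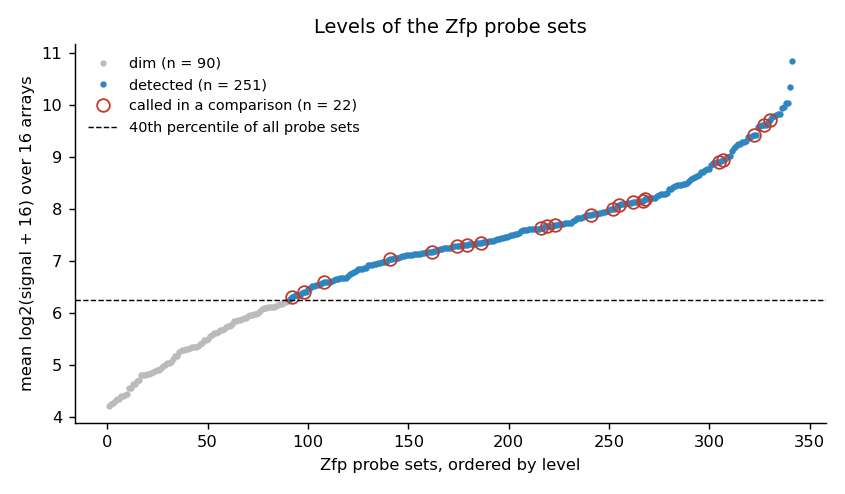
Mean log2(signal + 16) over 16 arrays (vertical axis) of each of the 341 Zfp probe sets, ordered by level (horizontal axis). Grey points are the 90 dim and blue points the 251 detected members, the dashed line is the 40th percentile of all probe sets, and red circles mark the 22 probe sets called in a comparison, which were spread over the range of detected levels.

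The spread between rats of a group was small for most members. The median pooled SD was 0.17 for detected and 0.30 for dim probe sets. Control rats differed least for Zfp511 (SD 0.02), Zfp260 (0.04), Zfp939 (0.04), Zfp955a (0.05) and Zfp414 (0.06), and most for Zfp483 (0.93), Zfp120 (0.68), Zfp385a (0.63), Zfp40 (0.50) and Zfp707 (0.47), with n = 4 rats each.

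Restraint without odour changed 1 of the 251 detected members. It was Zfp36l2, an RNA-decay factor of the CCCH group, and it was lower in restrained than in control rats. In this comparison 0.902% of all detected probe sets were called, against 0.398% of the members. The members' median change was 0.02, and that of all detected probe sets was 0.00. The smallest p-values after Zfp36l2 belonged to Zfp189 (0.40, SE 0.10, adjusted p = 0.0645), Zfp800 (0.36, SE 0.09, adjusted p = 0.0731), Zfp688 (-0.49, SE 0.15, adjusted p = 0.179) and Zfp182 (0.31, SE 0.10, adjusted p = 0.183). None of these 4 passed limma's test. The values of the 4 restrained and 4 control rats did not overlap for any of them. They were picked by p on these same values, so this adds no support.

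Restraint during linalool inhalation, compared with linalool alone, changed 7 members. Zfp324, Zfp207, Zfp36l2, Zfp414 and Zfp512b fell, and Zfp638 and Zfp800 rose. The 7 calls were 2.79% of the members, against 1.69% of all detected probe sets. The 5 lower calls were 1.99% of the members, against 0.564% of all probe sets, and the 2 higher calls were 0.797%, against 1.12%. For each of the 7 probe sets the 4 combined and 4 linalool rats did not overlap. The 7 were called on these same values, so this adds no support. The share of all probe sets without overlap was not counted. With the values as deposited, which shift all probe sets by 0.32 in this comparison, 21 members were called, all higher. With median scaling the split was 0 higher and 5 lower.

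In the mean of its effects without and with linalool, restraint changed 19 probe sets of 18 genes, 10 higher and 9 lower, with Zfp207 in both directions. Zfp692, Zfp36, Zfp347, Zfp638, Zfp800, Zfp24, Zfp189, Zfp207 and Zfp236 (2 probe sets) rose. Zfp324, Zfp867, Zfp36l2, Zfp207, Zfp414, Zfp341, Zfp512b, Zfp637 and Zfp787 fell. The called share of members was 7.57%, against 4.21% of all detected probe sets. In the higher direction it was 3.98% against 2.65%, and in the lower direction 3.59% against 1.56%. The median change was 0.01 for the members and -0.01 for all probe sets, so that the called members moved both ways about a median near 0.

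The direction of the average restraint calls depended on the scaling. With the values as deposited, whose overall median shifts by 0.21, 16 members were called, 16 higher and 0 lower, and with median scaling 16, of which 7 were higher. Relative to that shift, Zfp36l2 still differed by -0.49, Zfp324 by -0.64, Zfp867 by -0.57, Zfp341 by -0.27 and the dimmer Zfp207 probe set by -0.49. The falls and rises below are therefore relative to the other probe sets of the array. All 10 higher calls passed on both scales. Among them, Zfp36 rose by 0.76 as deposited, Zfp189 by 0.55, Zfp800 by 0.59, Zfp347 by 0.67 and Zfp692 by 0.78. Relative to that shift these rises were 0.55, 0.35, 0.38, 0.47 and 0.57. The shift favours a rise as deposited, where 98.2% of all called probe sets were higher.

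Of the 3 measured members of the CCCH group, 2 were called in the average restraint effect, in opposite directions. Over all detected probe sets 4.21% were called there, and 3 genes are too few for a result about the group. Zfp36l2 fell and Zfp36 (tristetraprolin) rose on average with restraint, while Zfp36l1 did not pass. Zfp36l2 read 10.12, 9.91, 9.78 and 10.07 in the 4 control rats and 9.33, 9.48, 9.67 and 9.41 in the restrained rats. With linalool it read 9.74, 9.75, 9.85 and 9.78, and with both treatments 9.34, 8.99, 9.33 and 9.37. Every restrained rat was below every rat of the matching group without restraint. Zfp36l2 was called on these same values, so this adds no support. The means were 9.97 ± 0.15, 9.47 ± 0.14, 9.78 ± 0.05 and 9.26 ± 0.18 (SD, n = 4) in control, restraint, linalool and combined rats. The change was -0.50 (SE 0.10, adjusted p = 0.0304 by limma) without linalool and -0.52 (SE 0.10, adjusted p = 0.0164) with it, and -0.51 on average (SE 0.07, adjusted p = 0.000652). The call with linalool was lost without linalool rat 3 or combined rat 2 (adjusted p up to 0.0605). Without linalool the call was lost when control rat 1, 2 or 4 or restraint rat 1, 2 or 4 was left out (adjusted p 0.0569 to 0.0952), and without control rat 1 the 1 called member was Zfp189. The average call held with each array left out in turn, with an adjusted p of at most 0.00231. The 2 other Zfp36l2 probe sets were dim, with mean levels of 5.28 and 5.76.

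Zfp36 read 6.63, 7.08, 6.65 and 6.79 in control rats and 7.16, 7.53, 6.83 and 7.21 in restrained rats. It read 6.52, 6.98, 6.68 and 6.80 with linalool and 7.60, 7.94, 7.24 and 6.95 with both. Combined rats 1 and 2 were highest, and the groups overlapped with and without linalool. The average change was 0.54 (SE 0.13, adjusted p = 0.0309 by limma), and the changes without and with linalool were 0.40 (adjusted p = 0.399) and 0.69 (adjusted p = 0.0800). The average call was lost without control rat 3, restraint rat 1, 2 or 4, linalool rat 1 or 3, or combined rat 1 or 2 (adjusted p up to 0.0675), and within the 13 BioC-low arrays its adjusted p was 0.0598. Zfp36l1 differed by 0.20 on average (SE 0.08, adjusted p = 0.163). Zfp36l3 was not analysed here.

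The upstream sequences of Zfp36 and Zfp36l2 are shown because these related genes moved in opposite directions, with those of Zfp800 and Zfp324, which rose and fell on average with restraint in every fit with 1 array left out that tested them. Each is the 250 bases before the gene's start in RefSeq's GRCr8 table, 5′ to 3′ on the gene's strand. Capitals mark CCAAT, the NF-Y box, and GGGCGG, the GC box, on either strand, so that ATTGG and CCGCCC are matches too.
Zfp36: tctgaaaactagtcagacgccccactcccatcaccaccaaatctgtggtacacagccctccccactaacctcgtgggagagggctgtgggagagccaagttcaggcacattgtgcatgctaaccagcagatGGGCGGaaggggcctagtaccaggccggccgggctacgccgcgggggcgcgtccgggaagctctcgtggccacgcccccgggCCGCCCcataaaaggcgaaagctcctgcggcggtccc
Zfp36l2: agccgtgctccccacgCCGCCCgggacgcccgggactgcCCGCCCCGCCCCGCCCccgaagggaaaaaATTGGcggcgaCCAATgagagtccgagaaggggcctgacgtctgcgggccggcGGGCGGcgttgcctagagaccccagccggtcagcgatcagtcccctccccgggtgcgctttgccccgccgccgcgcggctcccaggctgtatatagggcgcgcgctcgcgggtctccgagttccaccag
Zfp800: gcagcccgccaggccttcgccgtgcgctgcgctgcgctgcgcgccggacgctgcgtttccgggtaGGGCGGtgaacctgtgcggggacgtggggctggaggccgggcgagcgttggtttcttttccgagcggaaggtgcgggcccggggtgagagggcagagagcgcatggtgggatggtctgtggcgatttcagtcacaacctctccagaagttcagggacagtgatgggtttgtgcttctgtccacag
Zfp324: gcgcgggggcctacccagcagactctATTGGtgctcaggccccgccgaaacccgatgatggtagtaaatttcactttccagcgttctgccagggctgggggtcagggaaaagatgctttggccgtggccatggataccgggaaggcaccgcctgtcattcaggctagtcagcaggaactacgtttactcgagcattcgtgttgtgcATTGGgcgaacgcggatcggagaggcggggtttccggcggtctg
Zfp36 lies at chr1:92799109-92799358, Zfp36l2 at chr6:16242372-16242621, Zfp800 at chr4:57814210-57814459 and Zfp324 at chr1:82663361-82663610 on the minus, plus, minus and plus strands. Zfp36l2 held 2 CCAAT and 5 GGGCGG matches, some of them overlapping, and 34 CpG dinucleotides. Zfp36 held 2 GGGCGG matches and 18 CpG, Zfp800 1 GGGCGG match and 24 CpG, and Zfp324 2 CCAAT matches and 19 CpG.

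Such letters were common upstream of the members as a group. Of 178 member genes with a sequence in the table, 42.1% held CCAAT and 43.8% held GGGCGG, against 34.0% and 30.5% of all 33469 promoters of the same length. Those 33469 were not limited to protein-coding genes, to which 21851 of them belonged. The cyclic AMP element TGACGTCA was in 3.37% of members' promoters and 1.59% of all. TGTTCT, the hexamer repeated in the glucocorticoid response element, was in 17.4% and 17.5%. All were searched on both strands, and none of these motifs contains another. No match says only that these letters are not in this window. Member promoters had a median of 12 CpG and 56% GC, against 8 and 54% over 21851 protein-coding genes. Of the 20 called genes 17 had a sequence, of which 5 held CCAAT (Zfp324, Zfp347, Zfp36l2, Zfp867 and Zfp91) and 7 GGGCGG (Zfp236, Zfp24, Zfp36, Zfp36l2, Zfp800, Zfp867 and Zfp91).

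**Figure D2:**
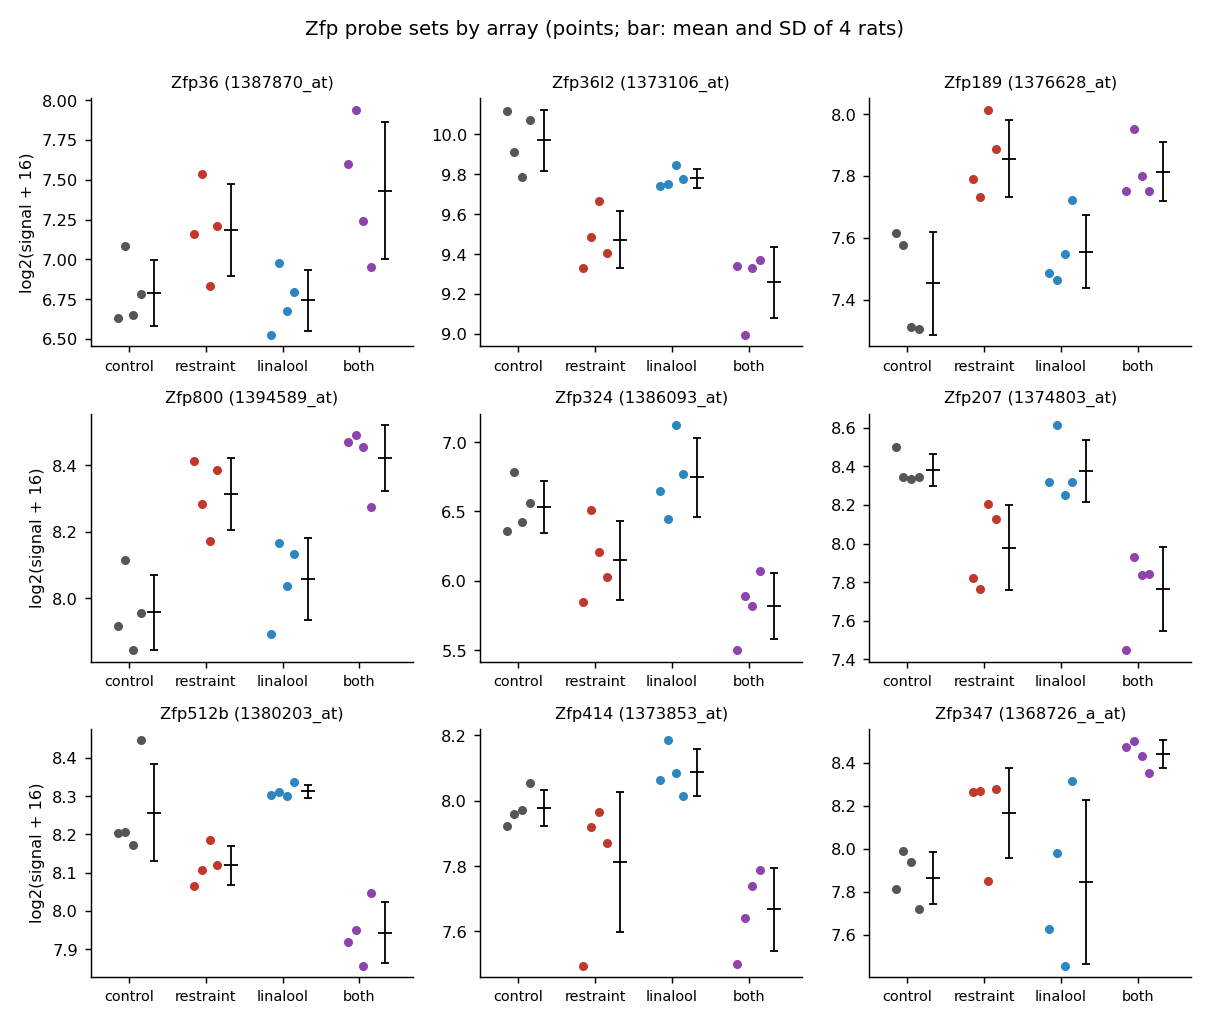
Log2(signal + 16) on each array (vertical axes, which do not start at 0) for 9 Zfp probe sets by group (horizontal axes), with the mean and SD of 4 rats as a bar at the right of each group. Zfp36, Zfp189, Zfp800 and Zfp347 were higher and the other 5 lower with restraint on average.

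Zfp189 and Zfp800 rose in the average restraint effect. Zfp189 is a KRAB zinc finger gene studied in the rodent prefrontal cortex for resilience to stress. It read 7.62, 7.58, 7.31 and 7.30 in control rats, 7.79, 7.73, 8.01 and 7.89 in restrained rats, 7.49, 7.46, 7.55 and 7.72 with linalool and 7.75, 7.95, 7.80 and 7.75 with both. All 8 restrained rats were above all 8 rats that were not restrained. Zfp189 was called on these same values, so this adds no support. The share of all probe sets that separated in this way was not counted. Its average change was 0.33 (SE 0.07, adjusted p = 0.0116 by limma). Neither the change without linalool, given above, nor that with it (0.26, SE 0.10, adjusted p = 0.196) passed. Zfp800 read 7.91, 8.11, 7.84 and 7.95 in control rats, 8.41, 8.28, 8.17 and 8.38 in restrained rats, 7.89, 8.17, 8.04 and 8.13 with linalool and 8.47, 8.49, 8.46 and 8.27 with both. The groups with restraint again lay above those without it, the smallest gap being that between linalool rat 2 and restraint rat 3. Zfp800 too was called on these same values, so the gap adds no support. Its average change was 0.36 (SE 0.06, adjusted p = 0.00344), and with linalool present 0.37 (SE 0.09, adjusted p = 0.0476). The change without linalool, given above, did not pass. The average call held with each array left out, but that with linalool present held only without control rat 1 or 2, restraint rat 3 or combined rat 4 (adjusted p up to 0.151 otherwise). The second Zfp800 probe set differed in the same direction (0.25, SE 0.08) but did not pass (adjusted p = 0.0950).

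Zfp324 had the most negative average restraint change of the 251 detected members. It read 6.36, 6.79, 6.43 and 6.56 in control rats, 5.85, 6.51, 6.20 and 6.02 in restrained rats, 6.65, 6.44, 7.12 and 6.77 with linalool and 5.50, 5.89, 5.82 and 6.07 with both. The combined rats were all below the linalool rats, while restraint rat 2 lay within the range of the controls. The change was -0.93 with linalool present (SE 0.16, adjusted p = 0.00825 by limma), -0.39 without it (SE 0.16, adjusted p = 0.339) and -0.66 on average (SE 0.12, adjusted p = 0.00415). This probe set was near the filter limit, a mean level of 6.26. All control and linalool rats were above that level, and all combined rats and all restraint rats except rat 2 below it. The probe set did not reach the limit in 1 of 16 fits with an array left out, that without the highest linalool rat (7.12). Its calls were therefore not tested without that rat. In the other 15 fits it passed for both the average and the linalool comparison. Within the BioC-low arrays the change with linalool present had an adjusted p of 0.0534. The other 2 Zfp324 probe sets were dim.

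Zfp867, also of low signal, fell by 0.57 on average (SE 0.13, adjusted p = 0.0239 by limma), from 6.80 ± 0.19 to 6.28 ± 0.36 without linalool and from 6.60 ± 0.16 to 5.97 ± 0.40 with it (SD, n = 4). Combined rat 1 was lowest, at 5.40. The call was lost without linalool rat 3 (adjusted p = 0.0550) and within the BioC-low arrays (0.0979). Zfp414 fell by 0.42 with linalool present (SE 0.10, adjusted p = 0.0415), where the combined rats at 7.50, 7.64, 7.74 and 7.79 were below the linalool rats at 8.06, 8.19, 8.09 and 8.02. Without linalool it differed by -0.16 (SE 0.10, adjusted p = 0.524), restraint rat 1 being lowest. Its call with linalool present held only without control rat 1 or 2, restraint rat 1 or 3 or combined rat 4 (adjusted p up to 0.141 otherwise), and its average call was lost without linalool rat 3 or combined rat 1 or 2 (up to 0.0593). Zfp512b fell by 0.37 with linalool present (SE 0.07, adjusted p = 0.0177), from 8.30, 8.31, 8.30 and 8.34 in linalool rats to 7.92, 7.95, 7.86 and 8.05 in combined rats. Its difference without linalool was -0.14 (SE 0.07, adjusted p = 0.470). The call with linalool present was lost without linalool rat 1 or 3 or combined rat 1, 2 or 3 (adjusted p up to 0.0603).

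Zfp341, an activator of STAT3 transcription, fell by 0.28 on average (SE 0.07, adjusted p = 0.0390 by limma), Zfp637 by 0.25 (SE 0.06, adjusted p = 0.0358) and Zfp787 by 0.22 (SE 0.06, adjusted p = 0.0451). With 1 array left out these calls were kept in 5, 5 and 2 of 16 fits. Those of Zfp341 were without control rat 3, restraint rat 2, linalool rat 4 or combined rat 2 or 3, those of Zfp637 without control rat 1 or rat 4 of any 1 group, and those of Zfp787 without control rat 1 or linalool rat 4. The highest adjusted p in the other fits were 0.0887, 0.0828 and 0.0938. With the values as deposited Zfp787 differed by 0.0007, and by -0.21 relative to the shift of all probe sets.

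Among the other rises, Zfp347 read 7.81, 7.99, 7.94 and 7.72 in control rats and 8.26, 8.27, 7.85 and 8.28 in restrained rats. With linalool it read 7.63, 7.98, 7.46 and 8.32, and with both 8.47, 8.50, 8.43 and 8.35. Restraint rat 3 lay among the controls, and the combined rats were all above the linalool rats. Zfp347 was called on average from these same values, so that gap adds no support. The average change was 0.45 (SE 0.11, adjusted p = 0.0259 by limma), and the call was lost without rat 1 or 2 of the restraint or combined group or linalool rat 1 or 3 (adjusted p up to 0.0598). Zfp692, which encodes a repressor of genes for glucose production, rose by 0.56 on average (SE 0.13, adjusted p = 0.0211), with restraint rat 2 highest at 8.24. It passed in all fits with an array left out except that without linalool rat 3 (adjusted p = 0.0516), and did not pass within the BioC-low arrays (0.114). Its second, brighter probe set differed by 0.02 (SE 0.05, adjusted p = 0.870).

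Detected probe sets of the same gene did not always agree. Zfp207 encodes a protein of the mitotic spindle checkpoint that also binds RNA, and its 2 detected probe sets were called in opposite directions. The dimmer read 8.50, 8.34, 8.33 and 8.35 in control rats, 7.82, 7.76, 8.21 and 8.12 in restrained rats, 8.32, 8.62, 8.25 and 8.32 with linalool and 7.45, 7.93, 7.84 and 7.84 with both. Restrained rats were below their comparison group in both cases. This probe set was called on these same values, so the gap adds no support. The average change was -0.51 (SE 0.09, adjusted p = 0.00328 by limma). With linalool present it was -0.61 (SE 0.12, adjusted p = 0.0187), a call lost without linalool rat 2 or combined rat 1 (adjusted p up to 0.0622). The brighter read 9.21, 9.23, 9.30 and 9.03 in control rats, 9.59, 9.39, 9.25 and 9.72 in restrained rats, 9.18, 9.42, 9.40 and 9.38 with linalool and 9.87, 9.64, 9.65 and 9.45 with both. It rose by 0.30 on average (SE 0.08, adjusted p = 0.0401), a call kept only without control rat 1 or 3, restraint rat 3 or combined rat 4 (adjusted p up to 0.0887 otherwise), and the third probe set was dim. The direction of Zfp207 transcripts as a whole is therefore not given by these values.

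Zfp24, a gene needed for myelination by oligodendrocytes, rose by 0.35 on one probe set (SE 0.09, adjusted p = 0.0448 by limma) and differed by 0.34 (adjusted p = 0.0620) and -0.18 (adjusted p = 0.514) on the others. Zfp638, a nuclear nucleic-acid-binding protein gene, rose by 0.40 on one (SE 0.11, adjusted p = 0.0476) and differed by 0.20 (adjusted p = 0.128) and 0.07 (adjusted p = 0.621) on the brighter others. With linalool present the first Zfp638 probe set rose by 0.63 (SE 0.15, adjusted p = 0.0479), from 7.81, 7.80, 7.51 and 8.10 to 8.38, 8.84, 8.39 and 8.13. The average call of Zfp24 was kept only without control rat 1, restraint rat 2 or linalool rat 2 or 4 (adjusted p up to 0.0921 otherwise). Both calls of Zfp638 were kept only without control rat 1, restraint rat 3, linalool rat 4 or combined rat 4 (up to 0.158 otherwise). The probe sets of Zfp236 agreed, at 0.23 (SE 0.06, adjusted p = 0.0257) and 0.28 (SE 0.07, adjusted p = 0.0316), and these calls were kept in 12 and 6 of 16 fits. The first was lost without restraint rat 2, linalool rat 1 or combined rat 1 or 3 (adjusted p up to 0.0595), and the second was kept without control rat 1 or 2, restraint rat 1, linalool rat 3 or combined rat 2 or 4 (up to 0.0709 otherwise).

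**Figure D3:**
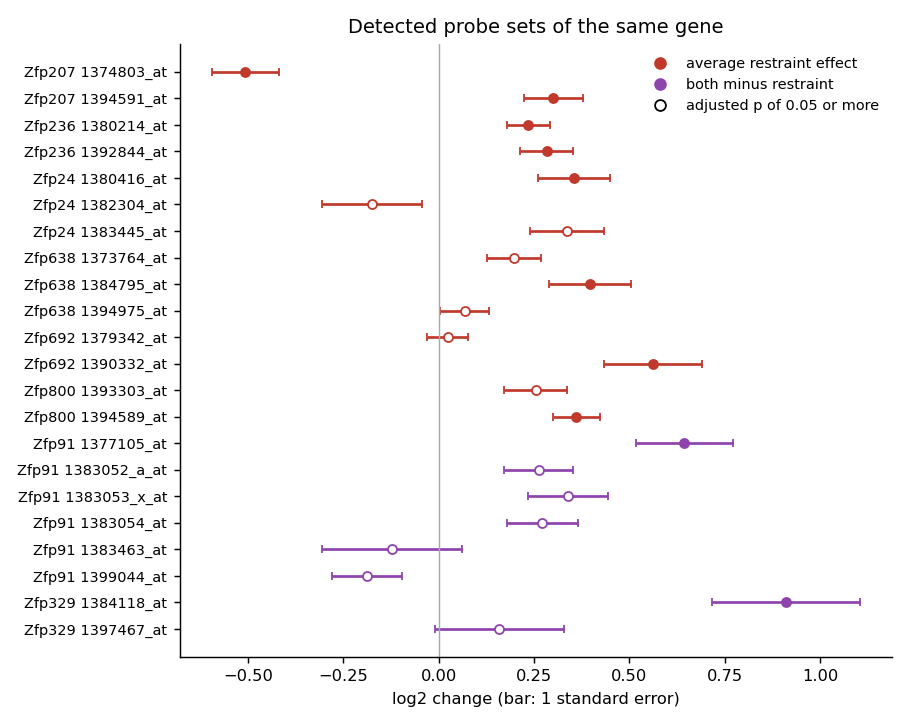
Log2 change with 1 SE (horizontal axis) for each detected probe set of 8 genes (vertical axis), red for the average restraint effect and purple for combined minus restraint rats, with filled points at an adjusted p under 0.05. The Zfp207 probe sets lie on opposite sides of 0, and those of Zfp91 lie between -0.19 and 0.64.

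Of the 220 genes, 145 had 1 probe set and 75 had several. Zfp91 had most, with 8 probe sets of which 6 were detected, followed by Zfp292 (6, all detected) and Zfp213 (5, of which 3 were detected). Zfp292 encodes a transcription factor of brain development, and its 6 probe sets ranged from -0.16 to 0.23 for the average restraint effect, none of them called. The 3 of Zfp213 ranged from -0.29 to -0.09. Probe sets of one gene also differed in level, by 5.09 for Zfp771, 5.04 for Zfp91 and 5.04 for Zfp532.

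The 19 calls of the average restraint effect were kept to different extents as arrays were left out. Between 7 and 19 probe sets were then called. Counts below 13 were 11 without restraint rat 1, 11 without restraint rat 2, 12 without restraint rat 4, 9 without linalool rat 1, 7 without linalool rat 3, and 8, 11 and 12 without combined rats 1, 2 and 3. Zfp36l2, Zfp800, Zfp189, Zfp512b and the dimmer Zfp207 probe set were called in all 16 fits, and Zfp324 in the 15 that tested it. Within the 13 BioC-low arrays 9 were called, 8 of them among the 19. These 8 were Zfp36l2, Zfp800, Zfp189, Zfp324, Zfp347, Zfp787, Zfp24 and the dimmer Zfp207 probe set. Zfp512b was not called there (adjusted p = 0.0714 by limma). For restraint with linalool present the count was 1 to 8: 4 without control rat 3 or 4, 4 without restraint rat 4, 3, 4 and 1 without linalool rats 1, 2 and 3, and 2, 2 and 3 without combined rats 1, 2 and 3. It was 12 when a block held the BioC-high arrays apart and 2 in the 13 BioC-low arrays, where the called probe sets, Zfp347 and Zfp462, were not among the 7.

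The changes with restraint without and with linalool come from comparisons that share no arrays but were normalized together. Over the 251 detected members they had a Pearson r of 0.37 and a Spearman rho of 0.31, and over all 18625 probe sets 0.37 and 0.27. The sign was the same for 60.2% of members and 58.6% of all probe sets. Genes are not independent replicates, so these are descriptions of the arrays. The interaction, the difference between both changes, called 0 of 251 members, the same as its share over all probe sets of 0%, and 23 members had an unadjusted p under 0.05 (9.16%, against 7.99% of all). The smallest p-values were those of Zfp365 (0.56, SE 0.19), Zfp609 (-0.42, SE 0.15), Zfp777 (0.68, SE 0.25), Zfp457 (-0.39, SE 0.15) and Zfp438 (-0.55, SE 0.21), with adjusted p from 0.516 to 0.564 by limma. A gene called in one odour condition only is thus not shown to have differed between them.

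**Figure D4:**
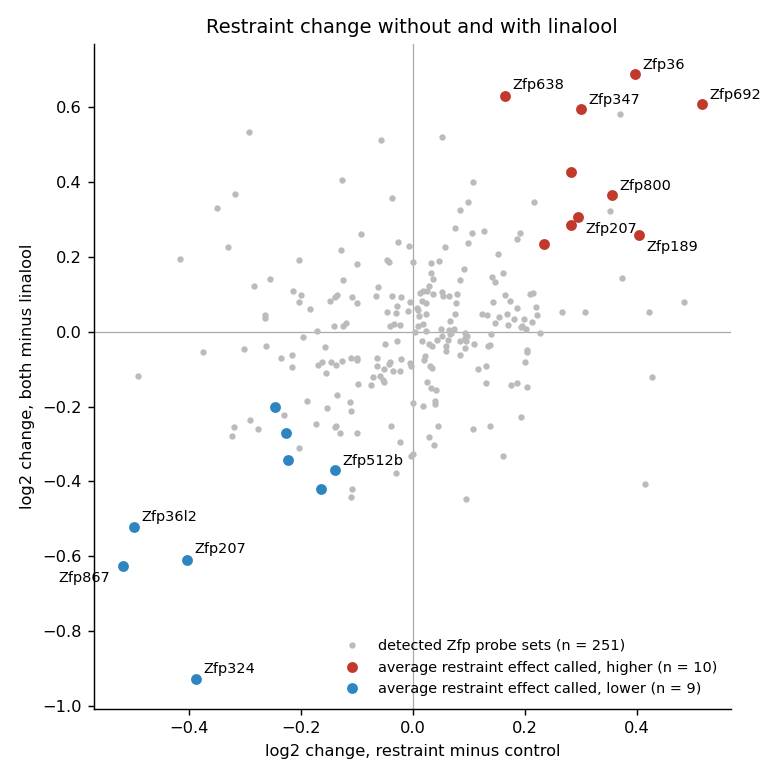
Log2 change with restraint without linalool (horizontal axis) and with linalool (vertical axis) of the 251 detected Zfp probe sets. The 10 red points rose and the 9 blue points fell in the average restraint effect, which is the mean of both axes, so that they lie away from the centre by construction.

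Linalool without restraint changed no member. Limma's test called 0 of 251, as it called 0% of all probe sets, and 19 members had an unadjusted p under 0.05, which was 7.57% against 9.83% of all. The members' median change was -0.02. The smallest p-values belonged to Zfp609 (0.41, SE 0.11, adjusted p = 0.286), Zfp354c (0.31, SE 0.09, adjusted p = 0.336), Zfp62 (-0.53, SE 0.18, adjusted p = 0.358), Zfp90 (-0.34, SE 0.11, adjusted p = 0.361) and Zfp770 (-0.23, SE 0.08, adjusted p = 0.388). Zfp609 read 7.51, 7.95, 7.58 and 7.84 in control rats and 8.06, 8.04, 8.23 and 8.18 in linalool rats, without overlap. It was picked by p on these same values, so this adds no support. In the combined group it read 7.77, 8.08, 7.73 and 8.01.

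Zfp354c, Zfp91 and Zfp329 were higher in combined than in restraint rats. These were the 3 calls of 251 members (1.2%, against 0.65% of all detected probe sets), and no member was called lower. The members' median change was nevertheless -0.05, with 39.0% of changes positive, against 44.4% of all probe sets. Zfp354c encodes a KRAB repressor known from bone. It read 7.45, 7.17, 7.16 and 7.43 in restrained rats and 7.86, 7.92, 7.89 and 7.93 in combined rats. Its values were 7.54, 7.43, 7.36 and 7.69 in control rats and 7.82, 7.70, 7.80 and 7.95 with linalool alone. All 8 rats with linalool were above all 8 without it. Zfp354c was called on these same values, so this adds no support. The share of all probe sets that separated in this way was not counted. The change was 0.59 among restrained rats (SE 0.09, adjusted p = 0.00740 by limma) and 0.45 averaged over both stress conditions (SE 0.07, adjusted p = 0.00865), a 1.37-fold level.

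Zfp354c was the 1 member called for the average linalool effect (0.398%, against 0.714% of all probe sets). Both of its calls held with each array left out in turn. The average call was lost when a block held the BioC-high arrays apart (adjusted p = 0.0684) and when they were left out (0.119), and the call among restrained rats within the BioC-low arrays (0.0661). Over all detected members the median of the average linalool effect was -0.04, with 37.8% positive, against -0.01 and 47.5% over all probe sets. The next members were Zfp90 (-0.31, adjusted p = 0.0914), Zfp236 (-0.21, adjusted p = 0.102), Zfp451 (0.40, adjusted p = 0.105) and Zfp457 (-0.24, adjusted p = 0.151), none of which passed. The count was 6 without control rat 1 and 3 without restraint rat 1.

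One of 6 detected probe sets of Zfp91 was called among restrained rats. It read 8.62, 8.70, 8.66 and 8.24 in restrained and 9.30, 9.20, 9.15 and 9.15 in combined rats, and 9.33, 9.01, 8.80 and 8.75 in controls and 8.88, 8.93, 9.01 and 9.20 with linalool alone. The combined rats were close to the controls, and the restrained rats were below every other rat. This probe set was called on these same values, so this adds no support. Restraint minus control was -0.42 and was not called (adjusted p = 0.164 by limma). Between combined and restrained rats the difference was 0.64 (SE 0.13, adjusted p = 0.0289 by limma). The other 5 probe sets differed by 0.34, 0.27, 0.26, -0.12 and -0.19, with adjusted p from 0.161 to 0.836. Zfp329 read 7.33, 6.83, 6.32 and 6.63 in restrained rats and 7.74, 7.95, 7.60 and 7.47 in combined rats, without overlap, a change of 0.91 (SE 0.19, adjusted p = 0.0431). Zfp329 was called on these same values, so the gap adds no support. Its second detected probe set differed by 0.16 (SE 0.17, adjusted p = 0.754). The Zfp91 call was lost without restraint rat 2, 3 or 4 or any 1 of the combined rats (adjusted p up to 0.0948). The Zfp329 call was kept only without control rat 1 or restraint rat 1 (up to 0.162 otherwise). The count among restrained rats fell to 1 without restraint rat 2, 3 or 4 or without any 1 of the combined rats, was 2 without control rat 2, 3 or 4 or linalool rat 1, 3 or 4, and was 5 without restraint rat 1. It was 1 when a block held the BioC-high arrays apart and 0 without them.

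**Figure D5:**
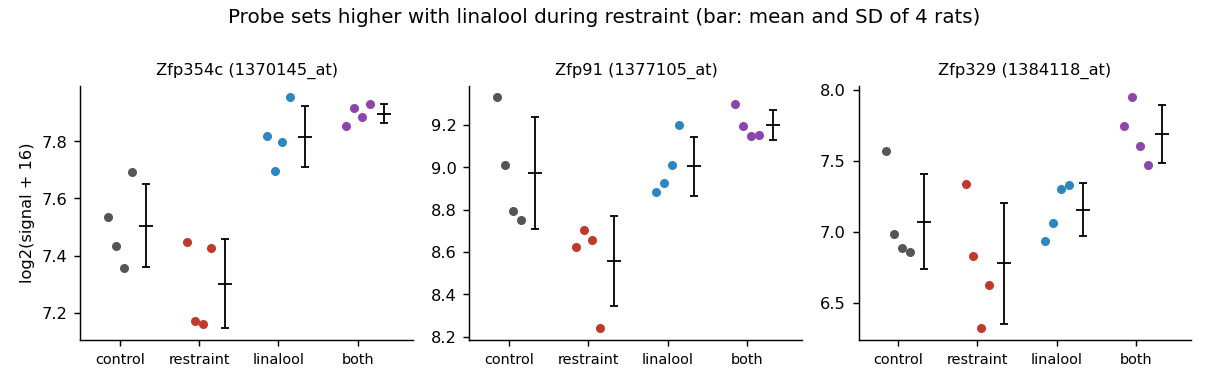
Log2(signal + 16) on each array (vertical axes, which do not start at 0) by group (horizontal axes) for the 3 probe sets called between combined and restrained rats, with the mean and SD of 4 rats at the right of each group. In each panel the 4 combined rats lie above the 4 restrained rats, a difference for which the 3 probe sets were picked.

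Grouped by role, few members passed, with a gene of several probe sets represented by its brightest. The counts below stand against 4.21% of all detected probe sets called in the average restraint effect (2.65% higher), at which a single call in a list of this size is no result about the list. Of 11 detected genes of neural development and neuronal function, 1 rose (Zfp189) and 0 fell in the average restraint effect. Those not called included Zfp423 (-0.08), Zfp521 (0.08), Zfp536 (0.05), Zfp462 (0.11), Zfp335 (0.26), Zfp292 (-0.01), Zfp365 (-0.05), Zfp503 (0.04), Zfp703 (-0.05) and Zfp704 (0.05). Of 5 genes of pluripotency and imprinting none passed. Zfp57 (0.03) and Zfp445 (0.06), which maintain imprints, Zfp281 (-0.02), Zfp322a (-0.03) and Zfp143 (0.02) were the 5.

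Of 10 detected genes for RNA binding and ribosome functions, 1 rose (Zfp207, on its brighter probe set) and 0 fell when each gene was taken by its brightest probe set. The dimmer Zfp207 probe set was called lower and a dimmer Zfp638 probe set higher, as given above. Zfp598, the sensor of collided ribosomes, differed by 0.16 (adjusted p = 0.104) and Zfp622, of large ribosomal subunit assembly, by 0.03. The others were Zfp106 (0.11), Zfp385a (-0.06), Zfp385b (0.03), Zfp346 (-0.12), Zfp638 (0.20), Zfp830 (0.08) and Zfp330 (0.03). Of 11 genes of promoter-binding regulators none passed for restraint, and Zfp354c rose with linalool, among restrained rats and on average. Zfp148 (0.03), Zfp91 (-0.05), Zfp260 (0.01), Zfp384 (-0.07), Zfp410 (0.09), Zfp746 (0.09), Zfp354a (0.08), Zfp275 (0.16), Zfp462 (0.11) and Zfp219 (-0.06) did not pass for restraint.

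The KAP1 pathway, through which KRAB members repress, was measured with 16 detected genes. Mphosph8, a subunit of the HUSH silencing complex, rose in the average restraint effect (0.39, SE 0.08, adjusted p = 0.0116 by limma), and no other passed in any of the 7 comparisons. With 4.21% of all detected probe sets called, 1 call in 16 is no result about the pathway. Trim28 itself differed by -0.07 (SE 0.06, adjusted p = 0.573) and the methyltransferase gene Setdb1 by 0.02 (SE 0.08, adjusted p = 0.925). Other zinc finger families, Zbtb, Zscan, Zkscan, Znf, Zc3h, Zmat, Zfhx and Zfand, had 103 detected probe sets. Of these 5 rose and 1 fell in the average restraint effect, 2 rose with restraint in the presence of linalool, 1 rose among restrained rats with linalool and 1 rose in the average linalool effect. Over all detected probe sets 4.21%, 1.69%, 0.65% and 0.714% were called in these 4 comparisons.

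Markers of other cell types moved with restraint beside these calls. Of 6 detected microglia markers, Cx3cr1 (-0.49) and P2ry12 (-0.998) fell in the average restraint effect and the other 4 did not pass. Their summed signal was 2473 to 2643 in control, 1914 to 2394 in restraint, 2144 to 2788 in linalool and 2093 to 3611 in combined rats. Of 5 endothelial markers Slco1a4 fell (-0.34), and their sum was 2769 to 3463, 2341 to 3428, 2554 to 2879 and 1916 to 2735 in the same order. The part of these cell types in the changes of the members was not tested. Neuron, astrocyte and oligodendrocyte markers had no call in any comparison.

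Zfp genes lay beside zinc finger genes more often than genes without a zinc finger symbol did. Zinc finger genes were taken by symbol, as Zfp, Znf, Zscan, Zkscan, Zbtb, Zik1 or Zim. By RefSeq, 89 of 214 matched member genes (41.6%) had another such gene as a direct neighbour. Of 22674 protein-coding genes without such a symbol, 590 (2.6%) did. Among members the share was 39.3% for genes with a detected probe set, 52.8% for genes with only dim ones and 50.0% (10 of 20) for the called genes. Zfp324 lies beside Zfp446, Zfp329 beside Zfp110 and Zscan18, Zfp347 between Zfp77 and Zfp938, Zfp867 beside Zfp496 and Zfp354c beside Zfp879. Zfp36, Zfp36l2, Zfp189, Zfp800 and Zfp207 had no zinc finger neighbour.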

How the data were processed

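Total RNA of the hypothalamus was extracted, made into biotin-labelled cRNA and hybridized to 1 single-colour array per rat, per the labels. The authors deposited signal intensity per probe set on a linear scale. The submitters' processing notes name MAS5, which combines the matched and mismatched probes of a probe set, without a version. The sources used here do not give its scaling target. Intensities as deposited differed in overall level from array to array, although a table comparable between arrays had been assumed.

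The 57 control probe sets were left out only after normalization, leaving 31042. All probe sets, controls included, were first put on the log2 scale, given the same quantiles on every array and returned to the linear scale. There 16 was added before the final log2. A fold change therefore understates the change of dim probe sets, and any shift common to most transcripts is removed. The 18625 probe sets with a mean at or above the 40th percentile were tested with limma 3.58.1 (R 4.3.3; two-sided moderated test) in a single model of group means over 16 arrays, with 12 residual degrees of freedom and 3.97 from the prior. Benjamini-Hochberg adjustment ran over all tested probe sets in each of 7 comparisons. The fit was tested on simulated data.

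Symbols came from the platform's annotation table, and 336 of the 341 members had their gene ID, with the same symbol, in a current RefSeq table. Every called member is named, with the members of smallest p, the brightest and dimmest, the most and least variable, the role-list members and the genes with most probe sets or the widest gap between them. The members and lists were chosen with earlier results of these data known. Alternatives were the values as deposited, median scaling, pseudocounts of 1 and 64, no filter or the 60th percentile, a block for replicate number or for the BioC-high arrays, the BioC-low arrays alone, a covariate for the beta-actin ratio of 3′ to 5′ signal, and each array left out. The replicate numbers in the titles were checked as a pairing: deviations of same-numbered arrays had a median correlation of 0.0044 over 24 pairs (-0.16 to 0.23), so that they were not treated as pairs.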

Additional observations from a re-analysis of the deposited data

Results flagged for a closer look

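For 6 of 88 groups of 4 rats examined, over the 22 called probe sets, 1 rat stood apart from the other 3. Chance gives about 1 in 20 such groups. For Zfp347, restraint rat 3 was at 7.85, where the others were at 8.26 to 8.28. For Zfp36l2, combined rat 2 was at 8.99, against 9.33 to 9.37, and for Zfp800, combined rat 4 was at 8.27, against 8.46 to 8.49. For Zfp512b, control rat 4 was at 8.45, against 8.17 to 8.21. For the dimmer Zfp207 probe set, control rat 1 was at 8.50, against 8.33 to 8.35, and for the brighter, linalool rat 1 was at 9.18, against 9.38 to 9.42.

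For 4 of the 22 called probe sets, all 4 treated rats lay on one side of the mean of their comparison group without the other treatment, and all 4 on the opposite side with it. Other called probe sets whose mean change differed in sign did not meet this condition. The 22 were called on these same values, so the count of 4 adds no support. The share of all probe sets with this pattern was not counted. The change of Zfp354c with restraint was -0.20 without and 0.08 with linalool, a difference of 0.28, and that of Zfp91 was -0.42 and 0.20, a difference of 0.61. The change of Zfp414 with linalool was 0.11 without and -0.15 with restraint, a difference of -0.26, and that of Zfp512b was 0.06 and -0.18, a difference of -0.23. None of these 4 differences passed limma's test of the interaction.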

How the results depend on the processing

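For linalool minus control and the interaction the count of called members was 0 under every alternative run. For stress minus control (1 in the report) it was 0 as deposited, with no filter and with a replicate block, 2 with the 60th percentile filter, 3 with the beta-actin ratio and 0 to 1 with an array left out. For restraint with linalool present (7) it was 21 as deposited, 4 with no filter, 12 with the BioC-high arrays as a block, 2 within the BioC-low arrays and 1 to 8 with an array left out. For linalool among restrained rats (3) it was 0 as deposited, 1 with no filter, 1 with the BioC-high block, 0 within the BioC-low arrays, 6 with the beta-actin ratio and 1 to 5 with an array left out. For the average restraint effect (19) it was 11 with no filter, 12 with the 60th percentile filter, 9 within the BioC-low arrays and 7 to 19 with an array left out. For the average linalool effect (1) it was 0 as deposited, with the BioC-high block and in the BioC-low arrays alone, 4 with the beta-actin ratio and 1 to 6 with an array left out.

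With the replicate number as a block, which does not pair the rats here, the counts were 0, 7, 4, 15 and 1 in the same order. With an array left out, 318 refits of a named call kept it, 176 lost it and 0 reversed it. Under the other alternatives 224 refits kept a call, 76 lost it and 1 reversed it: Zfp787 in the average restraint effect, at 0.0007 with the values as deposited, where all probe sets shift by 0.21. The causes of the other changes were not tested. Dim members have only values near the lower end of the signal range and were not tested.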
